A study of Mus musculus with 6 samples.

Results

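The collagen genes were all genes whose symbol has the form Col, a type number, the letter a and a chain number, and whose Ensembl identifier was in all 6 gene lists of the study. They numbered 44 of 21485 shared genes. By the family to which each chain belongs, 11 were fibrillar collagens, 8 were basement membrane collagens and 25 were other collagens. They were measured in cultured muscle-derived stem/progenitor cells (MDSPCs) of the mouse, which are the slowly adhering cells left after repeated replating of dissociated skeletal muscle. The 6 samples were 3 populations grown from muscle of young mice and 3 from muscle of old mice, 1 library each, all kept in the same proliferation medium with fetal bovine serum, horse serum and chick embryo extract. The flasks were coated with type I collagen, a protein that gives no RNA reads. The labels used here give no age in months, sex, strain or passage number, and do not say whether a population came from 1 animal or several, nor whether it was a clone.

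Collagens are trimeric proteins wound from 3 alpha chains, each chain encoded by its own gene. Fibrillar types I, II, III, V and XI form the fibres of connective tissue, and types V and XI are thought to set where a fibril starts and how thick it grows. Type IV forms the sheet of the basement membrane around each muscle fibre and its satellite cells, and types XV and XVIII are bound to that membrane. Of the others, type VI forms beaded filaments around muscle fibres, types IX, XII, XIV, XVI, XIX, XX and XXII (the FACITs) sit on the surface of fibrils, type VIII forms short chain networks, and types XIII, XVII, XXIII and XXV span the cell membrane. In skeletal muscle most type I and III collagen is made by fibroblast-like cells, while myogenic cells add basement membrane parts.

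Libraries were made with a droplet-based 3′ kit that counts unique molecular identifiers (UMIs), tags that let copies of one captured RNA be counted once. A level is given in CPM (counts per 1000000 UMIs of a sample), with library sizes adjusted by TMM (trimmed mean of M-values) factors. Because each UMI stands for 1 captured molecule and not for a length of RNA, CPM values of different genes can be set side by side as molecules captured. The kept cells of a sample held 133608357 to 193380549 UMIs on shared genes, with medians of 13001 to 19951 UMIs per cell. Any 2 samples shared 24 to 41 cell barcodes, at most 0.375% of the smaller sample. Summed myogenic markers (unscaled CPM of Pax7, Myf5, Myod1, Myog, Des, Cdh15, Chrna1 and Msc) were 190 to 2160 in the young and 255 to 3400 in the old samples. Of 10 fibro-adipogenic markers, summing to 208 to 314 in the young and 231 to 497 in the old, Lum, Dpt, Dpp4 and Pi16 were under 1 CPM in all samples. Gsn was at 149 to 317, Ly6a at 2.75 to 126, Cd34 at 5.61 to 119 and Smoc2 at 1.12 to 103 CPM. Pdgfra was at 0.0362 to 1.97 and Dcn at 0.253 to 1.49 CPM. Of the 4 cartilage markers, Acan, Comp and Matn1 were under 1 CPM in all samples and Sox9 was at 21.4 to 120 CPM. Of the 5 tendon markers, Tnmd, Fmod and Thbs4 were under 1 CPM, Mkx was at 1.61 to 6.70 and Scx at 120 to 303 CPM. The 6 pericyte and smooth muscle markers summed to 194 to 782 CPM in the young and 40.3 to 1510 CPM in the old samples, most of it Acta2. The 5 endothelial markers summed to 0.516 to 1.60 CPM, except for 59.4 CPM in young replicate 2, where Tek alone was at 58.9. Ptprc (immune cells) and Sox10 (Schwann cells) were under 1 CPM in all samples. The part of other cell types in the collagen levels was not tested.

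Collagen RNA was a small part of the RNA of these cells, 0.0482% to 0.0747% of UMIs per sample. At 5000 UMIs per cell the median cell held 2 or 3 collagen UMIs in every sample. The mean level was at least 10 CPM for 8 members, 1 to 10 CPM for 14 and under 1 CPM for 22. Between 17 and 22 members reached 1 CPM in a given sample. The 5 members of highest mean, Col5a2, Col18a1, Col4a1, Col3a1 and Col4a2, together held 66.9% to 81.5% of the collagen UMIs of a sample. Col5a2 was the highest member in 5 samples, and Col3a1 was the highest in young replicate 2. By mean level, type V, XVIII, IV and III chains thus made up the bulk of the collagen messages. Type I chains summed to under 1 CPM in each young sample, while in the old ones Col1a2 alone was at 7.15 to 19.8 CPM.

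Summed over all 44 members, collagen levels were, for replicates 1, 2 and 3 in turn, 634, 484 and 690 CPM (young) and 544, 469 and 661 CPM (old). The groups overlapped, with means of 603 ± 106 and 558 ± 96.8 CPM (SD, n = 3 each). Fibrillar collagens summed to 228, 292 and 373 CPM (young) and 232, 206 and 290 CPM (old). The means were 298 ± 72.9 and 242 ± 42.9, a log2 difference of -0.30 that was within the spread of the samples. Basement membrane collagens summed to 309, 97.9 and 210 CPM (young) and 225, 175 and 250 CPM (old). Their means of 206 ± 106 and 217 ± 38.3 also overlapped, and young replicate 2 was the lowest of all 6. Other collagens had the narrowest fold range over the 6 samples, at 96.3, 94.3 and 107 CPM (young) and 86.3, 87.7 and 121 CPM (old). Their means were 99.1 ± 6.64 and 98.3 ± 19.5, so the old samples were more spread than the young. Sums over chosen members were not tested.

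**Figure D1:**
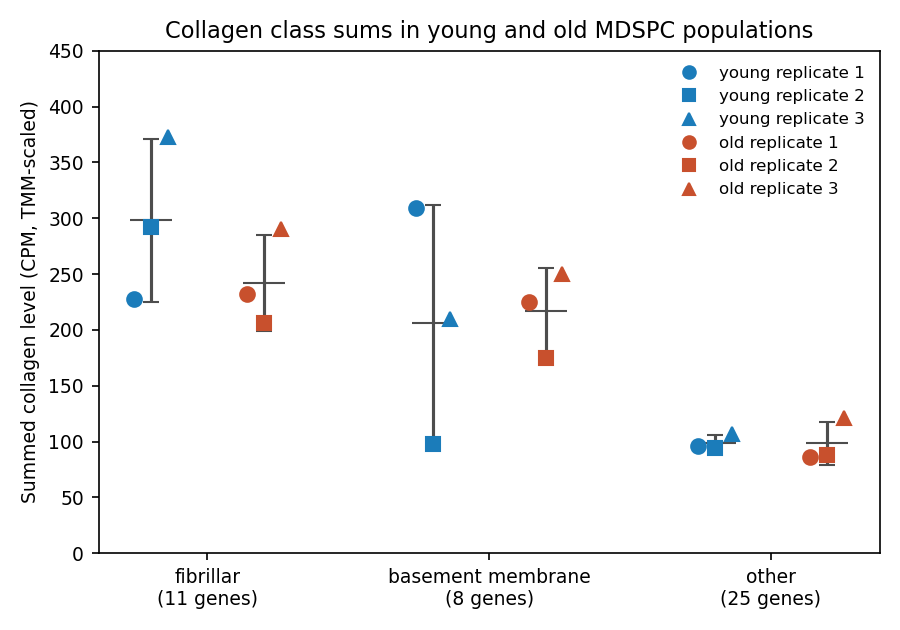
Summed level of each collagen class (CPM, linear axis from 0) in the 3 young (blue) and 3 old (orange) samples; the dash is the group mean and the bar its SD. The groups overlap in all 3 classes, and young replicate 2 is lowest for the basement membrane collagens at 97.9 CPM.

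The make-up of these sums differed from sample to sample. Fibrillar members were 36.0% of the collagen level in young replicate 1 and 60.3% in young replicate 2, and 42.7% to 43.9% in the old samples. Within the other class, the FACITs summed to 10.8, 28.2 and 28.2 CPM (young) and 19.4, 44.8 and 60.0 CPM (old). The short chain network collagens, almost all Col8a1, summed to 73.4, 24.8 and 51.3 CPM (young) and 54.1, 22.4 and 16.7 CPM (old). The beaded filament collagens of type VI summed to 2.16, 17.3 and 16.4 CPM (young) and 0.93, 8.65 and 9.30 CPM (old). In each of these 3 groups of members the young and old samples overlapped.

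Old populations were compared with young ones by testing the summed counts of each sample with edgeR, with the gene list on which a sample was counted as a term. Of the 44 members, 39 passed the filter on low counts and were tested, and the other 5 had at most 20 counts in any sample. No member passed an adjusted p of 0.05, in a comparison where 1 of 14512 genes did (0.00689%). At an unadjusted p under 0.05 there were 8 members, 5 with a higher and 3 with a lower value in the old samples. They were 20.5% of the members tested, beside 3.53% of all genes. The 3 young and 3 old values did not overlap for 6 tested members (15.4%, beside 6.05% of all genes), 5 of them with the old samples higher (beside 3.63% of all genes) and 1 with them lower (2.42%). DESeq2, used as an alternative, called 6 members, beside 1.51% of all genes. They were Col1a2, Col19a1, Col4a5, Col1a1 and Col13a1 with higher and Col2a1 with lower fitted values in the old samples. The median log2 fold change of the members, old over young, was -0.07, beside -0.01 for all genes. The median size of the change regardless of direction was 0.91 beside 0.26. By class, the median was -0.64 over the 11 fibrillar members, 0.25 over the 8 basement membrane members and 0.22 over the 20 other members tested.

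**Figure D2:**
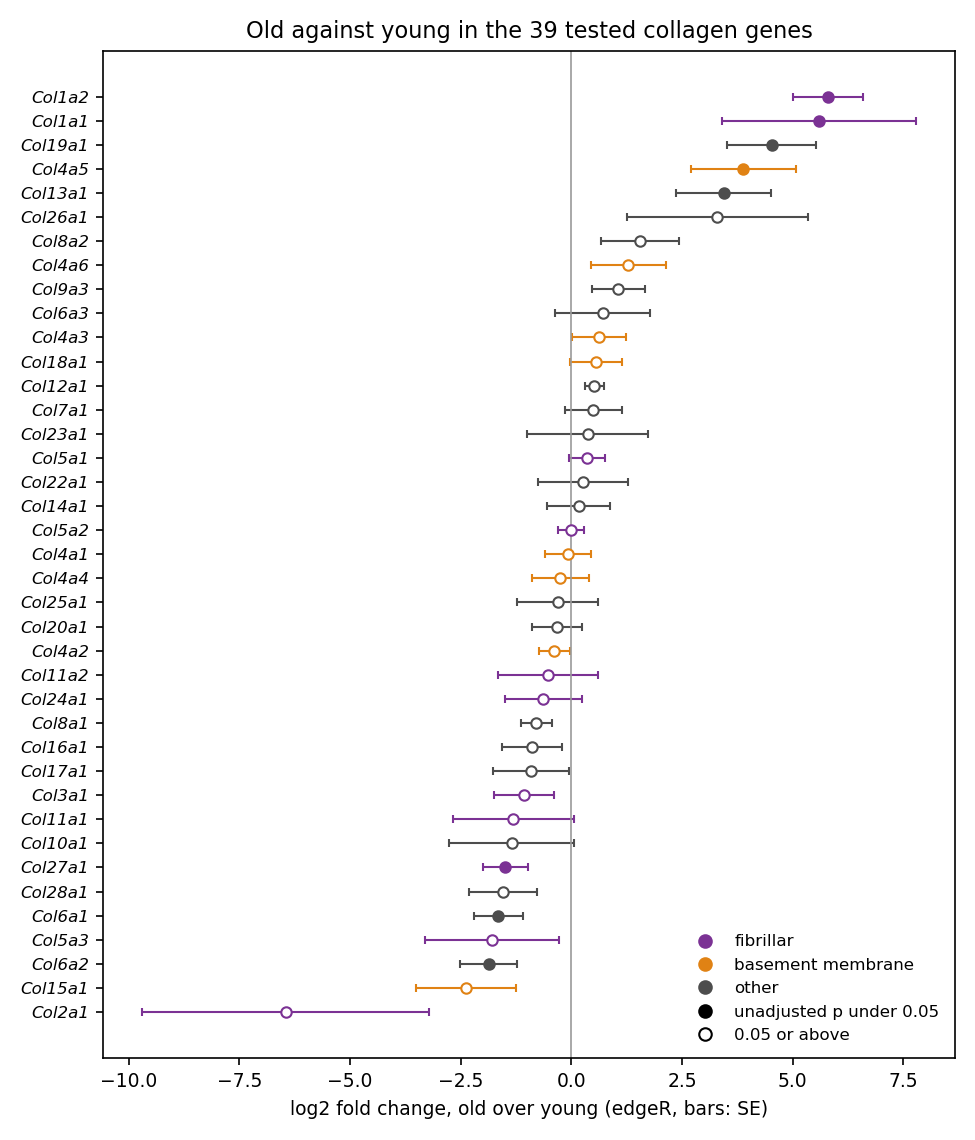
Fitted log2 fold change of old over young samples for the 39 tested members, with bars of 1 SE and colours for the class; filled points have an unadjusted p under 0.05. Col1a2, Col1a1, Col19a1, Col4a5 and Col13a1 lie at the top with values from 3.44 to 5.80, and 3 filled points lie below 0.

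Of the fibrillar collagens, Col5a2 was the most abundant member and also the most even. It encodes the alpha 2 chain of type V collagen, a minor fibril component (Ensembl ENSMUSG00000026042, chr1:45374321-45503282, minus strand, GRCm38). Its level was 162, 102 and 190 CPM (young) and 149, 143 and 159 CPM (old). The old values lay within the young range, with a log2 fold change of -0.01 (SE 0.29, edgeR adjusted p = 1.0). Its partner chain Col5a1 was at 8.90, 28.2 and 10.9 CPM (young) and 9.82, 32.3 and 21.7 CPM (old). The UMI ratio of Col5a1 to Col5a2 ran from 0.0549 to 0.276. The usual type V trimer holds more alpha 1 than alpha 2 chains, but UMI ratios, here and below, are of captured RNA and do not give numbers of protein chains.

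Col1a2 encodes the alpha 2 chain of type I collagen, the main collagen of fibrous tissue (ENSMUSG00000029661, chr6:4504814-4541544, plus strand). Its UMIs numbered 25, 23 and 93 (young) and 3317, 1326 and 3190 (old). As levels these were 0.221, 0.119 and 0.455 CPM (young) and 19.8, 7.15 and 18.5 CPM (old). Every old sample was above every young one. The log2 fold change was 5.80 (SE 0.78), a 55.7-fold difference, with an unadjusted p of 0.000403 and an adjusted p of 0.366 by edgeR. By DESeq2 the adjusted p was 7.52e-14, and leaving out any 1 sample gave log2 values from 5.44 to 6.62. The genes around it on the chromosome were also read. Of the 6 tested genes within 500 kb of Col1a2, none had young and old values that did not overlap, and their log2 fold changes ran from -1.11 to 0.16.

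Col1a1, the other chain of type I collagen, did not follow Col1a2. A type I trimer normally holds 2 alpha 1 chains and 1 alpha 2 chain. Col1a1 (ENSMUSG00000001506, chr11:94936224-94953042, plus strand) had 2, 2 and 19 UMIs (young) and 12, 43 and 1829 UMIs (old). Only old replicate 3 reached 1 CPM, at 10.6 CPM. The log2 fold change was 5.60 (SE 2.19, unadjusted p = 0.0454, edgeR adjusted p = 1.0), and without old replicate 3 it was 2.08 with an unadjusted p of 0.128. Without young replicate 2 or 3 the p was 0.118 or 0.129. The ratio of Col1a1 to Col1a2 UMIs was 0.08, 0.087 and 0.204 (young) and 0.00362, 0.0324 and 0.573 (old). Old replicate 1, with the most Col1a2, had the lowest ratio.

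Col3a1 encodes the single chain of type III collagen. It was at 45.2, 132 and 109 CPM (young) and 40.1, 12.8 and 72.2 CPM (old), which overlapped (log2 -1.07, SE 0.68, edgeR adjusted p = 1.0). Col3a1 and Col5a2 lie side by side on chromosome 1, yet their UMI ratio ran from 0.0895 in old replicate 2 to 1.29 in young replicate 2. To show 2 fibrillar genes of unlike pattern, the bases before their RefSeq transcript starts (GRCm38.p6) are given 5′ to 3′ on the plus strand, with motifs in capitals. The motifs searched, on both strands, were TATAAA (the core promoter box), then CCAAT (bound by NF-Y) and finally GGGCGG (bound by Sp1). For Col1a2 only the 123 bases that lie between exons of the GENCODE annotation are given, chr6:4505370-4505492. For Col3a1 all 250 bases are given, chr1:45311288-45311537.
Col1a2: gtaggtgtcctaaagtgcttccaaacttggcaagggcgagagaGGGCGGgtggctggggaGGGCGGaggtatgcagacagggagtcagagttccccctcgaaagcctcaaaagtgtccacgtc
Col3a1: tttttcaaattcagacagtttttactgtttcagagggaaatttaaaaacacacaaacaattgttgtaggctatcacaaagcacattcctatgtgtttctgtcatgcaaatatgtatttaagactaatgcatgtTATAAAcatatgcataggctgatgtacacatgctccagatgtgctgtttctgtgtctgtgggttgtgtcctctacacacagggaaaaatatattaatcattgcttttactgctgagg
The stretch before Col1a2 holds GGGCGG at 205 and 188 bases before the start, and 1 CCAAT lies 109 bases before it, outside the bases shown. The stretch before Col3a1 holds 1 TATAAA, 117 bases before the start. Of the 44 members 35 had an entry in the RefSeq promoter table, and in their 250 bases 21 held GGGCGG, beside 32.7% of all 32851 promoters of that table. The motif CCAAT was in 13 (33.8% of all promoters) and the motif TATAAA in 5 (12.4%). A match to these letters is a description of the sequence and not a measured site.

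The remaining fibrillar members were low or were high in single populations. Col2a1, the type II chain typical of cartilage, had 4668 of its 4948 UMIs in young replicate 3. Its levels were 0.0707, 1.23 and 22.8 CPM (young) and 0.125, 0.0270 and 0.0522 CPM (old) (log2 -6.46, SE 3.24, edgeR adjusted p = 1.0). The same population had the highest level of Col11a1, a type XI chain that joins type II in cartilage fibrils, at 29.3 CPM against 0.680 to 8.96 CPM in the other 5. In young replicate 3, 27.0% of cells had a Col2a1 UMI, where an even spread would give 34.4%. Col27a1 (ENSMUSG00000045672, chr4:63214004-63334991), a fibrillar collagen known from cartilage, was at 2.84, 15.9 and 9.40 CPM (young) and 2.15, 3.87 and 2.37 CPM (old). The groups overlapped, with a log2 value of -1.49 (SE 0.51, unadjusted p = 0.0288, edgeR adjusted p = 1.0). Leaving out young replicate 2, old replicate 2 or old replicate 3 raised the unadjusted p to 0.0798, 0.0899 and 0.10. Col24a1, Col5a3 and Col11a2 ranged from 0.0245 to 7.14 CPM, and Col24a1 and Col5a3 were highest in young replicate 2.

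**Figure D3:**
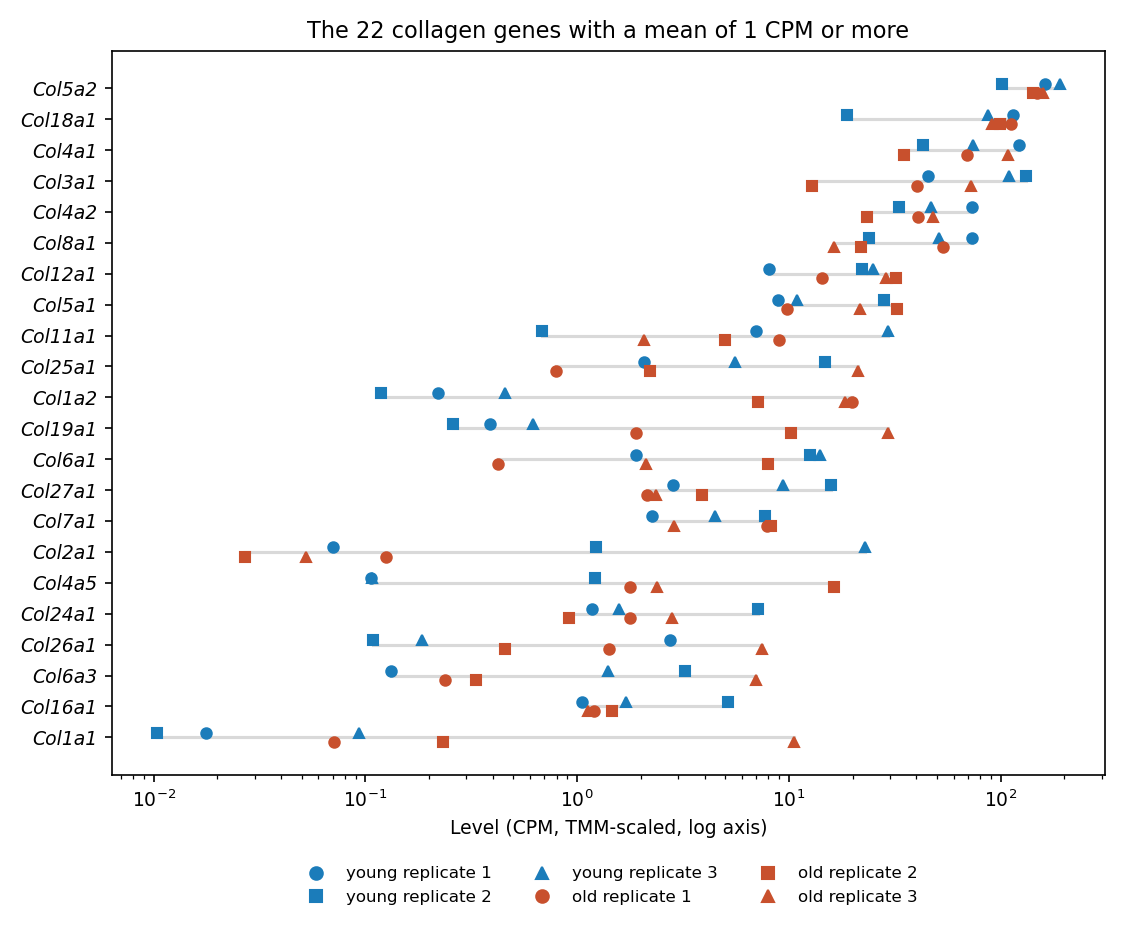
Level of the 22 members with a mean of at least 1 CPM in each of the 6 samples (log axis; grey lines span the samples). Col5a2 at the top spans less than 2-fold, and Col1a2 and Col19a1 are the members whose 3 old points lie clear of the 3 young ones by the widest gaps.

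Among the basement membrane collagens, Col18a1, Col4a1 and Col4a2 gave nearly all of the level. Col18a1, whose C-terminal piece is endostatin, was at 114, 18.8 and 87.4 CPM (young) and 112, 99.8 and 91.2 CPM (old). All but young replicate 2 were thus close together. Col4a1 was at 122, 43.2 and 73.8 CPM (young) and 69.7, 35.0 and 108 CPM (old). Col4a2 was at 73.1, 33.2 and 46.8 CPM (young) and 40.6, 23.5 and 47.9 CPM (old). None of the 3 had an unadjusted p under 0.05 by edgeR. Col4a1 and Col4a2, which join in the commonest type IV trimer, are read in opposite directions from chromosome 8 (chr8:11198423-11312826, minus strand, and chr8:11312805-11449287, plus strand), so that their annotated 5′ ends overlap. Their UMI ratio stayed between 1.30 and 2.25, the narrowest of the 6 ratios computed.

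Col4a5 encodes a type IV chain used in kidney, lung and smooth muscle membranes, and its human counterpart is mutated in Alport syndrome (ENSMUSG00000031274, chrX:141475385-141689234, plus strand). It was at 0.106, 1.22 and 0.108 CPM (young) and 1.78, 16.3 and 2.39 CPM (old). Every old sample was above every young one, although old replicate 1 exceeded young replicate 2 by little. The log2 fold change was 3.89 (SE 1.18, unadjusted p = 0.0182, edgeR adjusted p = 1.0, DESeq2 adjusted p = 0.0149). Old replicate 2, where Col4a5 was highest, had a median shift of 0.76 on the log2 scale over 485 genes of the X chromosome, beside -0.17 to -0.06 in the other samples. The part of that shift in the Col4a5 level was not tested. Without old replicate 2 the log2 fold change was 2.81 with an unadjusted p of 0.108, and without young replicate 1 or old replicate 1 the p was 0.074 or 0.075. Col4a6, its neighbour in the opposite direction and a partner chain, was at 0.0265 to 0.262 CPM and its groups overlapped. Col4a3, Col4a4 and Col15a1 were under 1 CPM in all samples.

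Of the FACITs, Col12a1 was the most abundant, and Col19a1 differed most between the groups. Col12a1 was at 8.05, 22.2 and 25.0 CPM (young) and 14.4, 32.2 and 28.7 CPM (old) (log2 0.52, SE 0.22, unadjusted p = 0.0534, edgeR adjusted p = 1.0). Col19a1, known from differentiating muscle and from nerve cells (ENSMUSG00000026141, chr1:24261890-24587472, minus strand), was at 0.389, 0.259 and 0.621 CPM (young) and 1.90, 10.2 and 29.5 CPM (old). All old values lay above the young ones, and the old samples themselves spanned over 10-fold. Its log2 fold change was 4.53 (SE 1.01, a 23.0-fold difference), with an unadjusted p of 0.00486, an edgeR adjusted p of 1.0 and a DESeq2 adjusted p of 2.25e-05. Leaving out any 1 sample gave log2 values from 3.65 to 5.49. The differentiation gene Myog had the same order as Col19a1 in the old samples, at unscaled CPM of 6.25, 177 and 935. So did Pax7, Myod1, Des and Chrna1, but not Myf5, Cdh15 and Msc, which were lower in old replicate 3 than in 2. The young samples had 28.4, 344 and 34.8 CPM of Myog, while Col19a1 stayed under 1 CPM. Whether the level of Col19a1 between samples rests on differentiating cells was not tested. Col9a2 was the other FACIT without overlap, with 4 UMIs in all, 1, 1 and 2 of them in the old samples, and it was too low to test.

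Of the 3 type VI chains tested, Col6a1 and Col6a2 had lower and Col6a3 a higher fitted value in the old samples, and the groups overlapped for each. Type VI collagen is a heterotrimer of alpha 1, alpha 2 and 1 further chain, and mutations in these genes cause muscle disease in humans. Col6a1 (ENSMUSG00000001119, chr10:76708792-76726168) was at 1.89, 12.6 and 14.0 CPM (young) and 0.423, 7.93 and 2.12 CPM (old). Col6a2 (ENSMUSG00000020241, chr10:76595762-76623630) was at 0.0265, 1.40 and 0.963 CPM (young) and 0.0119, 0.350 and 0.197 CPM (old). The log2 fold changes were -1.65 (SE 0.56, unadjusted p = 0.0272) and -1.87 (SE 0.64, unadjusted p = 0.0292), both with an edgeR adjusted p of 1.0. Without old replicate 2 the value of Col6a1 was -2.44, and with cells thinned to 5000 UMIs that of Col6a2 was -3.11. The unadjusted p of Col6a1 rose to 0.117, 0.116 and 0.0549 without young replicate 1, old replicate 1 or young replicate 3. That of Col6a2 rose to 0.0837, 0.0517, 0.0719 and 0.125 without young replicate 2, young replicate 3, old replicate 2 or old replicate 3. Without the gene list as a term the unadjusted p of Col6a1 was 0.241 and that of Col6a2 was 0.21. Both chains were lowest in young replicate 1 and old replicate 1, for which the shorter gene list was used. Col6a3 was at 0.132, 3.25 and 1.40 CPM (young) and 0.238, 0.334 and 6.98 CPM (old) (log2 0.71, SE 1.07, unadjusted p = 0.534), so its order across samples was not that of Col6a1. The ratio of Col6a1 to Col6a2 UMIs was 9.04 to 71.3 and that of Col6a3 to Col6a1 was 0.0421 to 3.30.

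The short chain and membrane-spanning collagens also varied between populations. Col8a1, a short chain collagen of vessel walls and of the cornea, was at 73.3, 23.8 and 51.1 CPM (young) and 53.7, 22.0 and 16.4 CPM (old) (log2 -0.79, SE 0.35, unadjusted p = 0.0669, edgeR adjusted p = 1.0). Its partner Col8a2 was at most 0.286 CPM, with 5, 5 and 33 UMIs (young) and 48, 35 and 35 UMIs (old), and did not overlap (log2 1.55, SE 0.88, unadjusted p = 0.132). Its log2 value was 2.79 without young replicate 3 (unadjusted p = 0.0188) and 1.05 without young replicate 1 (unadjusted p = 0.378). Col13a1, a membrane-spanning collagen of the neuromuscular junction (ENSMUSG00000058806, chr10:61838236-61979108), had 20, 19 and 25 UMIs (young) and 194, 43 and 493 UMIs (old). Its old values lay above the young ones (log2 3.44, SE 1.08, unadjusted p = 0.0204, edgeR adjusted p = 1.0, DESeq2 adjusted p = 0.0399). Without old replicate 3 the log2 value was 1.79 and the unadjusted p 0.0915, and leaving out any 1 of the other samples except old replicate 2 gave a p of 0.0539 to 0.0608. Col25a1, a membrane-spanning collagen of myoblasts that motor axons need to enter muscle, was at 2.08, 14.8 and 5.54 CPM (young) and 0.799, 2.21 and 21.2 CPM (old), which overlapped. Col28a1 was the one tested member whose old values all lay below the young ones, at 0.115, 0.135 and 0.117 CPM (young) and 0.107, 0.0323 and 0.0174 CPM (old) (3 to 26 UMIs a sample, log2 -1.55, SE 0.77, unadjusted p = 0.0931). Without young replicate 1 or old replicate 1 its log2 value was -2.31 (unadjusted p = 0.0437 and 0.0384).

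A sample's level can be held by many cells or by few. Over the cells with at least 5000 UMIs, the share of cells with a UMI of a member was set against the share expected if the same UMIs fell on cells in proportion to their depth. Over the 32 members with at least 100 UMIs in a sample, the median of this ratio was 0.893. Free RNA in the droplets also gives UMIs, and its part in these shares was not tested, since no cell type that lacks collagen RNA was identified in these cultures. Col5a2 lay between 0.888 and 0.945, and 74.5% (young replicate 1) to 88.0% (old replicate 2) of cells had a UMI of it. Only 9 of 124 values were under 0.6, from 6 members: Col1a2, Col1a1, Col6a3, Col11a1, Col25a1 and Col6a1. Col4a5 was at 0.789 to 0.953, on both sides of the median of 0.893. Col19a1 was below that median in all 4 samples with a value, at 0.751 to 0.841. In old replicates 2 and 3, 152 and 377 cells had at least 3 Col19a1 UMIs, where an even spread would give 16.8 and 157.

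Col1a2 was the least evenly spread. In old replicates 1, 2 and 3, 10.3%, 7.65% and 3.33% of cells had a Col1a2 UMI, where an even spread would give 27.7%, 14.2% and 22.1%. The largest numbers of Col1a2 UMIs in 1 cell were 22, 13 and 76. Col1a1 in old replicate 3 was spread in the same way, in 2.20% of cells against 13.5% for an even spread, with up to 45 UMIs in 1 cell. Col6a3 in old replicate 3 was found in 2.19% of cells against 9.17%.

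**Figure D4:**
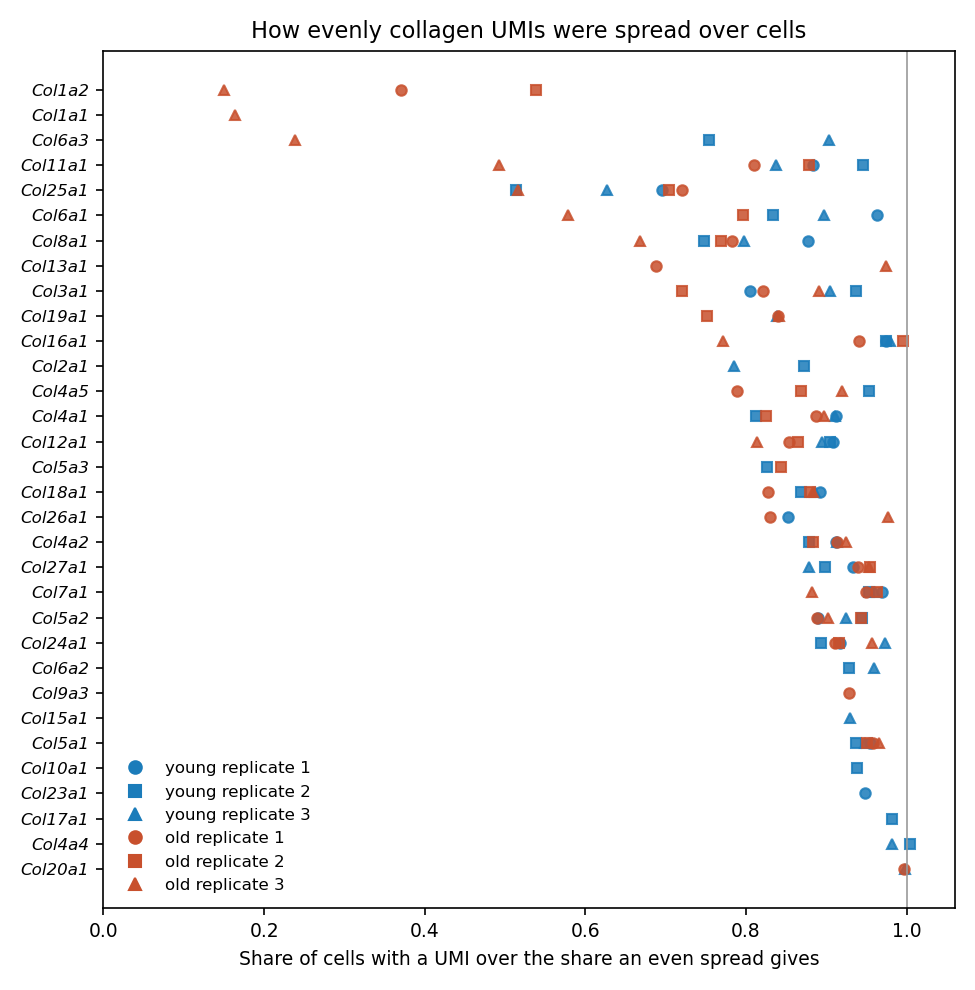
For each member with at least 100 UMIs in a sample, the share of cells with a UMI divided by the share that evenly spread UMIs would give, per sample; 1 means even. Col1a2, Col1a1 and Col6a3 reach 0.15 to 0.239 in old replicate 3, while Col5a2 stays at 0.888 or above.

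Cells with a Col1a2 UMI after thinning to 5000 UMIs were then set against the cells of the same old sample with none after thinning, a comparison chosen after this spread had been seen. At full depth the cells with none still held 837, 659 and 516 Col1a2 UMIs in old replicates 1, 2 and 3, beside 2472, 656 and 2616 in the positive cells. At 5000 UMIs per cell, 625, 228 and 235 cells of old replicates 1, 2 and 3 had at least 1 Col1a2 UMI (6.31%, 2.68% and 1.93%), beside 11, 6 and 28 cells of the young samples (0.13%, 0.056% and 0.263%). Their median depth was 14058, 20849 and 29347 UMIs, beside 13605, 19810 and 12947 UMIs in the cells with none. In old replicate 3 they were thus more than 2-fold deeper, and the part of doublets in this was not tested. Free RNA may also give a single UMI, and its part in this class was not tested. Col1a2 itself was fixed by the split and is left out of the counts that follow. Across the 3 samples edgeR called 0 of 33 other members, in a comparison that called none of 13882 genes (0.0%). At an unadjusted p under 0.05 there were 4 of these members (12.1%), beside 3.93% of 13881 other genes. DESeq2 called none of the other members and 12 genes higher and 28 lower (0.307% of its genes with Col1a2 counted). Without old replicate 3 edgeR called 44 of 14177 other genes higher and 138 lower. Of the 34 other members tested in that fit, only Col4a5 was among the higher and only Col3a1 among the lower ones.

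What these cells held besides Col1a2 differed between the old populations. In old replicate 3 they had 184 CPM of Col1a1 against 4.22 in the other cells, 129 CPM of Col6a3 against 2.51, 31.5 CPM of Col6a1 against 1.07, 103 CPM of Col8a1 against 14.1 and 29.1 CPM of Col11a1 against 1.13. Col16a1, at 15.6 against 0.609 CPM, Col7a1, at 15.4 against 2.57, Col12a1, at 60.0 against 29.7, and Col4a5 were also over 2-fold higher. They had less Col18a1, at 27.8 against 101 CPM, and less Col19a1, at 7.07 against 32.7 CPM. In all, of 18 members with at least 20 UMIs in both classes of cells, 9 were over 2-fold higher. Another 4, with Col3a1 and Col25a1, were over 2-fold lower. The share of all genes that differed by over 2-fold between the classes was not computed for any of the 3 samples. In old replicate 1 the same cells had 0.0945 CPM of Col1a1 against 0.0754 and 0.378 CPM of Col6a3 against 0.247. Of the 14 members with at least 20 UMIs in both classes of cells there, 3 were higher by over 2-fold. They were Col5a2, at 303 against 148 CPM, Col4a5, at 6.33 against 1.58 CPM, and Col19a1, at 6.05 against 1.67 CPM. Lower by over 2-fold there were Col12a1, at 5.48 against 16.0 CPM, Col11a1, at 4.82 against 9.90 CPM, and Col3a1. Col11a1, Col12a1 and Col19a1 thus had opposite directions in old replicates 1 and 3. In old replicate 2 none of the 14 members besides Col1a2 with at least 20 UMIs in both classes of cells differed by over 2-fold. With Col1a2 left out, all collagens together were 1.27, 1.10 and 1.60 times as high in the Col1a2-positive cells of the 3 samples. Col4a5 was higher in all 3 samples (log2 1.48, SE 0.37, unadjusted p = 0.0062 by edgeR). Col3a1 was lower in old replicates 1 and 3, at 16.6 against 44.8 and 27.6 against 80.0 CPM, and nearly equal in 2, at 12.7 against 13.0 CPM. Its log2 value was -1.03 (SE 0.34, unadjusted p = 0.0241 by edgeR), and both genes had an edgeR adjusted p of 0.949.

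Marker genes of the Col1a2-positive cells were read in the same fit. The myogenic markers had a median log2 value of -1.23 over 8 genes, none of which passed the test. Myod1, a master factor of muscle identity, was at 20.9 CPM against 64.7, 344 against 460 and 234 against 1070 in old replicates 1, 2 and 3. Des, the muscle intermediate filament gene, was at 4.25 against 22.1, 49.7 against 91.0 and 126 against 506 CPM. In old replicate 1, however, Myf5, at 36.1 against 9.75 CPM, and Chrna1, at 204 against 120 CPM, were higher in the positive cells. Both were lower in those of old replicates 2 and 3. The fibro-adipogenic markers had a median of 0.86 over 6 tested genes, none past the test. Lum was too low to compare, at no more than 0.00655 CPM in either class of cells. Pdgfra, their defining receptor, was at 0.945 against 1.95, 0.184 against 0.329 and 4.82 against 0.183 CPM, lower in the positive cells of old replicates 1 and 2 and higher in those of 3. Of the 6 tested genes, only Ly6a was higher in the positive cells of all 3 samples (log2 1.17, SE 0.42). In old replicate 3 it was at 46.1 against 24.4 CPM, and all the other tested genes of this list were higher there too. Among them Gsn was at 307 against 209 and Smoc2 at 7.39 against 1.03 CPM. Both were lower in the positive cells of old replicates 1 and 2. Cd34 was lower in the positive cells of old replicate 1, at 41.9 against 120 CPM, and higher in those of 3, at 111 against 19.5 CPM. The endothelial markers had a median of 1.15 over 4 tested genes, each at most 1.42 CPM in either class of cells. The pericyte and smooth muscle markers had a median of -0.30 over 5 tested genes, and none of either list passed the test. In old replicate 3 the positive cells also had 381 CPM of Lox, the collagen crosslinking enzyme, against 17.7, as well as 68.1 CPM of the pericyte marker Cspg4 against 5.72 and 28.1 CPM of the proteoglycan Dcn against 0.636. Of the same pericyte and smooth muscle list, Pdgfrb was higher there too, at 32.5 against 1.11 CPM. Acta2, at 946 against 1720 CPM, and Notch3, at 6.11 against 21.4 CPM, were lower, and Rgs5 and Myh11 were at 0 in the positive cells. In old replicate 1 Lox was at 29.4 against 86.2 CPM. Which cell type these cells belong to was not tested.

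Cells scored in S or G2/M phase, called cycling here from that score, were compared with the other cells of the same sample. They were 35.8% to 87.1% of the cells of a sample. The mitotic genes Ccnb1, Plk1 and Ccna2, which are not in the scored lists and were chosen after the scores were seen, were 6.53 to 17.9, 8.24 to 24.4 and 12.4 to 53.0 times as high in them as in the other cells. Of 30 members tested, 9 passed an adjusted p of 0.05 by edgeR, 1 higher and 8 lower in cycling cells. This is 30.0%, beside 53.0% of all 13383 genes tested (23.1% higher and 30.0% lower). The median log2 value of the members was -0.17, beside -0.05 for all genes. Col25a1 was lower in cycling cells of all 6 samples. It was at 0.857 against 2.99, 7.88 against 27.4 and 4.32 against 16.5 CPM in the young, and at 0.618 against 1.63, 1.33 against 2.75 and 13.3 against 38.7 CPM in the old samples (log2 -1.62, SE 0.11, edgeR adjusted p = 3.75e-06). Col19a1 was lower too (log2 -1.01, SE 0.13, adjusted p = 0.000151), for example at 24.1 against 42.0 CPM in old replicate 3. Col5a1 fell by 0.24, Col4a5 by 0.57, Col24a1 by 0.50 and Col20a1 by 0.67 on the log2 scale. Col26a1 fell by 0.90 and Col17a1 by 0.67. By edgeR the adjusted p of Col24a1 rose to 0.0816 without young replicate 2, and that of Col20a1 to 0.0574 without young replicate 1. For Col26a1 it rose to 0.0715 without young replicate 1 and 0.0525 without old replicate 1, and for Col17a1 to 0.0624, 0.0742 and 0.0658 without old replicate 1, 2 or 3. Col8a1 was the one member that rose, by 0.38 (SE 0.11, adjusted p = 0.0153), and was higher in cycling cells of all 6 samples. Col1a2 did not pass the test, at 20.1 against 20.6, 6.45 against 7.46 and 18.0 against 19.2 CPM in the old samples.

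Cells that had begun to differentiate were taken as those with at least 2 UMIs of Myog, the gene of the factor myogenin, at 5000 UMIs per cell, and were compared with cells that had none. Their shares were 2.32%, 14.5% and 2.35% (young) and 0.343%, 9.97% and 36.2% (old). Old replicate 1 had only 34 such cells and was left out of this fit. Of 32 members tested over the other 5 samples, 8 passed the test, 1 higher and 7 lower. This is 25.0%, beside 36.7% of 13357 genes (16.2% higher and 20.5% lower), and the median log2 value was -0.22 for the members and -0.07 for all genes. Col25a1 rose in all 5 samples. It was at 10.9 against 1.53, 41.2 against 9.73 and 41.2 against 4.49 CPM in the young, and at 5.48 against 1.77 and 50.2 against 3.22 CPM in old replicates 2 and 3 (log2 2.75, SE 0.38, edgeR adjusted p = 0.00446). Col8a1 fell by 1.67 on the log2 scale (SE 0.18, adjusted p = 0.00109), for example to 9.68 CPM from 25.0 in young replicate 2. Col11a1 fell by 1.56, Col5a3 by 1.38, Col16a1 by 1.18 and Col7a1 by 1.00. The abundant members Col18a1 and Col5a2 fell by 0.40 and 0.33. Leaving out old replicate 2 or 3 raised the edgeR adjusted p of Col5a3 to 0.0689 and 0.0701, that of Col18a1 to 0.0818 and 0.0572 and that of Col5a2 to 0.14 and 0.0737. Col18a1 also lost the call without young replicate 2 (0.0552), and Col5a2 without young replicate 3 (0.067). Thinning cells to 5000 UMIs also ended the calls of Col5a3 (0.056) and Col5a2 (0.0562). With Myog-positive cells taken at 1 UMI or more, Col18a1 was at -0.13 (edgeR adjusted p = 0.517). Col19a1 was higher in Myog-positive cells of all 5 samples without passing the test (log2 2.06, SE 0.76, adjusted p = 0.0852), at 43.5 against 19.6 CPM in old replicate 3. In cells with no Myog UMI after thinning, Col19a1 stood at 9.14 and 19.6 CPM in old replicates 2 and 3, and at 0.194 to 0.438 CPM in the young samples. Such cells may still hold Myog RNA that was not seen at 5000 UMIs. The part of this and of free RNA in these Col19a1 levels was not tested.

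**Figure D5:**
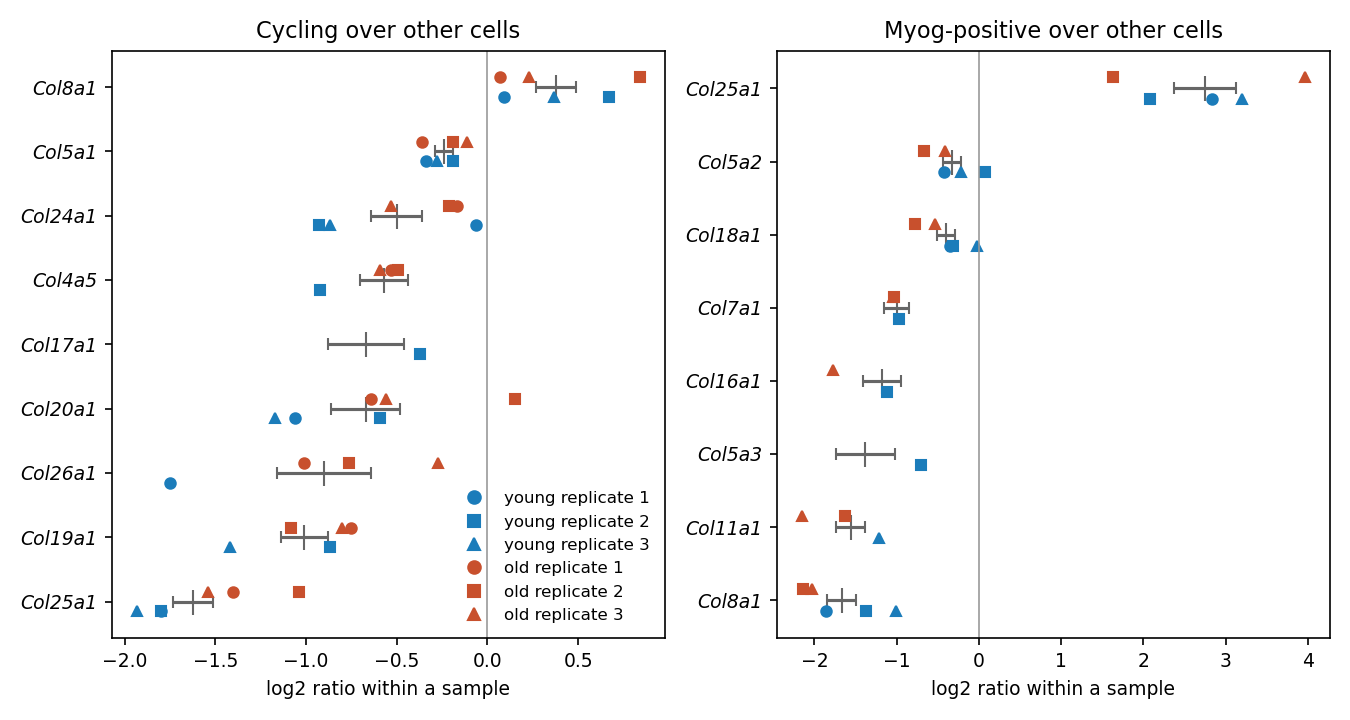
Within-sample log2 ratios of the members that passed the test, for cycling over other cells (left) and Myog-positive over other cells (right); points are samples with at least 20 UMIs in both classes of cells, and the tick with its bar is the fitted value with its SE. Col25a1 lies at the negative end on the left (-1.62) and alone on the positive side on the right (2.75).

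A newly made collagen chain is modified, folded and trimmed before it can join a fibre. Of 54 genes for these steps, for fibril partners and for receptors, 49 were tested between old and young and none was called by edgeR or by DESeq2. Only 2 had an unadjusted p under 0.05, both among the 7 tested genes of propeptide removal, whose median log2 value was -0.38. That is 4.08% of the genes of these steps, near the 3.53% of all genes. The 2 were Tll1, a protease of the Bmp1 family (1.87, 0.0882 and 0.0440 CPM in the young, 6.10, 0.108 and 2.04 CPM in the old, log2 3.24, SE 1.28, unadjusted p = 0.0474), and Adamts2, the type I and III procollagen N-proteinase. Adamts2 was at 0.0972, 0.0208 and 0.0489 CPM (young) and 1.44, 0.491 and 0.0406 CPM (old) (log2 3.24, SE 1.09, unadjusted p = 0.0273). Of 21 tested genes for modification and folding in the endoplasmic reticulum, 7 had higher and 14 lower fitted values (median -0.15). The collagen chaperone gene Serpinh1 was at 251, 295 and 303 CPM (young) and 172, 329 and 326 CPM (old). The 4 of this list with the lowest p were P3h3 (log2 0.69), Plod1 (-0.44), Colgalt1 (-0.42) and Fkbp10 (-0.67), at unadjusted p of 0.148, 0.161, 0.188 and 0.257 by edgeR.

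The crosslinking enzyme gene Lox was at 22.3, 12.4 and 25.6 CPM (young) and 77.1, 24.7 and 29.8 CPM (old) (log2 0.93, SE 0.41, unadjusted p = 0.0668). The median over the 5 crosslinking genes was 0.12. Of 8 tested fibril and network partners (median 0.20), Sparc, a matrix protein that binds collagen, had groups that did not overlap. Over all 49 tested genes this held for Sparc and for Mia3, a collagen export gene with a log2 value of -0.24 (4.08%, beside 6.05% of all genes). Sparc was at 263, 260 and 372 CPM (young) and 374, 687 and 415 CPM (old) (log2 0.71, SE 0.30, unadjusted p = 0.0572, edgeR adjusted p = 1.0). Bgn, a small proteoglycan, was at 461, 0.249 and 299 CPM (young) and 10.5, 2.67 and 55.1 CPM (old). The 8 receptors tested had a median of 0.0. The collagen uptake receptor gene Mrc2 (log2 1.28, SE 0.70) and the integrin gene Itga2 (log2 1.74, SE 1.11) had unadjusted p of 0.118 and 0.171 by edgeR. Ddr1 and Ddr2, receptors for fibrillar collagen, were at 12.5 to 70.0 and 34.4 to 73.5 CPM over the 6 samples, and the groups overlapped for both.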

How the data were processed

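The authors deposited, per sample, raw UMI counts of every gene in every cell barcode. Cell Ranger 7.0.0 was used for young and old replicate 1 and 7.2.0 for the other 4, per the file headers. The submitters' processing notes name Cell Ranger 7.2.0, Seurat and build mm10. The first 2 samples used a list of 21849 features, the others one of 32285. Cells with at least 1000 UMIs, 500 genes and under 15% mitochondrial UMIs were kept, 61673 of 62849. Scrublet called 2 doublets and was taken not to have worked, and no cell was removed as a doublet.

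Sums of counts per sample went into the two-sided quasi-likelihood F test of edgeR 4.0.16 (R 4.3.3, robust, with TMM factors and filterByExpr) with the gene list and the group as terms, adjusted by Benjamini-Hochberg over all genes at a threshold of 0.05. SE is the absolute log2 value over the square root of F. Comparisons within samples used the sample as a block, and phases came from scanpy 1.11.5 (43 S and 54 G2/M genes) after thinning to 5000 UMIs. Classes needed 50 cells. Alternatives were DESeq2 1.42.0, scaling, filters, thinning and leaving out samples. Scripts were tested on simulated data. The p-values of old against young set the group difference against the spread between these populations. Those within samples set the mean difference against how much it varied from sample to sample. Members with full values were those with a mean of 100 CPM, an unadjusted p under 0.05 or no overlap, and up to 4 genes of each related list by lowest p. Other members were added for class context after their values were seen. The members and lists were chosen with earlier results of these data known. Positions are from GENCODE M21 and promoters from RefSeq, both GRCm38. Protein features were not analysed here.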

Additional observations from a re-analysis of the deposited data

How the results depend on the processing

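Of 548 alternative values for 47 results, 486 counted as kept: a tested gene kept its direction and side of the threshold, a count stayed within 1.5 times, and a class sum moved by less than 1 SD of its samples, whatever its sign. For old against young, DESeq2 called 180 genes higher and 39 lower, with 5 collagens higher and 1 lower. Genes called higher numbered 2 with library totals only, 0 without the gene list term, 0 on the longer gene list alone and 0 to 3 when 1 sample was left out, with 0 collagens in each leave-one-out fit. Col5a2, near 0, reversed to log2 values of 0.06 (library totals), 0.04 (longer list), 0.03 (replicate block), 0.01 (thinned cells), and ran from -0.26 to 0.26 when 1 sample was left out. With the replicate number as a block the pairing gave 1 gene higher and 0 lower, no collagen, and 5.90 for Col1a2. Same-numbered samples correlated at 0.378, 0.224 and -0.081, and the other pairs of a young and an old sample at -0.408 to 0.276. Whether the numbers pair the samples cannot be told from so few values.

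For Myog-positive cells, leaving out 1 sample gave 1293 to 2225 genes higher and 1622 to 2761 lower, with 1 to 2 collagens higher and 5 to 9 lower. By DESeq2, 4 collagens were higher and 8 lower, beside 2545 genes higher and 2946 lower. At 1 Myog UMI or more, 3 collagens were higher and 6 lower, beside 1985 and 2698 genes. At 4 or more, 2 collagens were higher and 10 lower, beside 2114 and 3215 genes. In 18 alternative values, from leaving out single samples, thinning or another Myog limit, a collagen called within samples no longer passed, always in the same direction. These values belonged to Col24a1, Col20a1, Col26a1 and Col17a1 for cycling cells and to Col5a3, Col18a1 and Col5a2 for Myog-positive cells. For Col1a2-positive cells, DESeq2 called 13 genes higher and 28 lower, with 1 collagen higher, and thinning gave 1 gene and 1 collagen higher, in both cases Col1a2, which the split fixed. Leaving out 1 sample gave 0 to 45 genes higher, 0 to 138 lower, 0 to 2 collagens higher (Col1a2 included) and 0 to 1 lower.

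The log2 difference of the fibrillar sum was -0.66 without Col5a2, 0.03 within the shorter list and -0.46 to -0.10 when 1 sample was left out (young replicates 1 and 3), and that of the other class was 0.44 without Col8a1. The basement membrane sum, at 0.08, moved within its SD of 0.63 but changed sign, at 0.47 within the longer and -0.46 within the shorter list, -0.19 without Col18a1 and -0.26 to 0.50 when 1 sample was left out. The other class, at -0.01, ran from -0.19 to 0.07 when 1 sample was left out. The causes were not tested. There were 3 populations a group, and 22 members were under 1 CPM.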
